A study of Homo sapiens with 8 samples.

Results

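The insulin-like growth factor (IGF) axis was described in BJ cells, an established line of human skin fibroblasts, through 10 genes chosen by name: the binding proteins IGFBP2, IGFBP3, IGFBP4, IGFBP5, IGFBP6 and IGFBP7, the ligands IGF1 and IGF2, and the receptors IGF1R and IGF2R. All 10 were found among the 59370 genes with a value in every library, each in 1 row per table, and 9 of them passed the filter on low values, which asked for a mean of 1 FPKM or more in at least 1 of the arms. IGF1 did not. IGFBP2 passed only through the arm in which its level was higher. FPKM are fragments scaled by transcript length and library size, so levels were set side by side between genes. Any bias that remains with length or GC content was not corrected in these levels.

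The 8 libraries fall into 4 groups of 2. In one arm the long noncoding RNA PURPL was overexpressed (OE-PURPL) and set against PCDNA, a control whose label is the usual name of an expression plasmid. In the other arm PURPL was targeted with an ASO, an antisense oligonucleotide (ASO-PURPL), and set against ASO-NC. All 4 groups are the same line, grown in serum-containing medium, and the labels do not say that the replicates of a group came from separate cultures, so every p-value reflects only how far these libraries scatter, and that scatter may be technical. The labels name neither the promoter of the overexpressing construct nor the sequence of the oligonucleotides, and they give no dose or time.

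PURPL itself stood at 5.42 and 5.73 FPKM in PCDNA, 153 and 238 in OE-PURPL, 16.2 and 9.74 in ASO-NC, and 6.31 and 4.24 in ASO-PURPL. Each pair of libraries moved in the direction its label gives. Library sums ran from 463588 to 586913 FPKM, and 13442 to 14598 genes reached 1 FPKM; read numbers are unknown, so no counting error can be attached to a level. The 12 fibroblast markers were all detected, with a summed level of 5610 to 7074 FPKM. The keratinocyte markers summed to 9.05 to 35.7 FPKM, the melanocyte markers to 0.991 to 3.63 FPKM and the endothelial markers to 0.492 to 2.13 FPKM. KRT10 held most of the keratinocyte sum, from 7.44 FPKM in PCDNA replicate 1 to 35.3 in ASO-NC replicate 1. KRT14 reached 2.20 FPKM and EPCAM 2.02, both in OE-PURPL replicate 2. KRT5 and KRT1 were listed at no more than 0.01, DSG3 at up to 0.170 and CDH1 at up to 0.214. Of the melanocyte markers, PMEL reached 3.51 FPKM.

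IGF1 and IGF2 are secreted growth factors that signal through the receptor tyrosine kinase IGF1R, while IGF2R, which also carries mannose-6-phosphate-tagged enzymes to lysosomes, takes up IGF2 and does not signal as a kinase. In extracellular fluid the ligands are held by IGF-binding proteins, which prolong their life and limit or assist their access to the receptor, and proteases release them. Fibroblasts secrete several of these binding proteins, and some, IGFBP3, IGFBP5 and IGFBP7 among them, are known as part of the secretions of senescent cells.

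The binding proteins were the most abundant members, and a single member, IGFBP6, ran from the top of the order in one arm to the middle of it in the other. In PCDNA the order by mean level was IGFBP6, IGFBP4, IGFBP7, IGFBP5, IGFBP3, IGF2R, IGF2, IGF1R, IGFBP2 and IGF1, and the libraries of IGFBP4 and IGFBP7 overlapped. OE-PURPL had the same order, with the same overlap. ASO-NC began with IGFBP4 and IGFBP7, followed by IGFBP5, IGFBP6 and IGF2R, whose neighbouring ranges overlapped, then by IGF2 and IGFBP3, which overlapped too, and by IGF1R, IGFBP2 and IGF1. ASO-PURPL differed from ASO-NC in that IGFBP3 stood above IGF2.

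**Figure D1:**
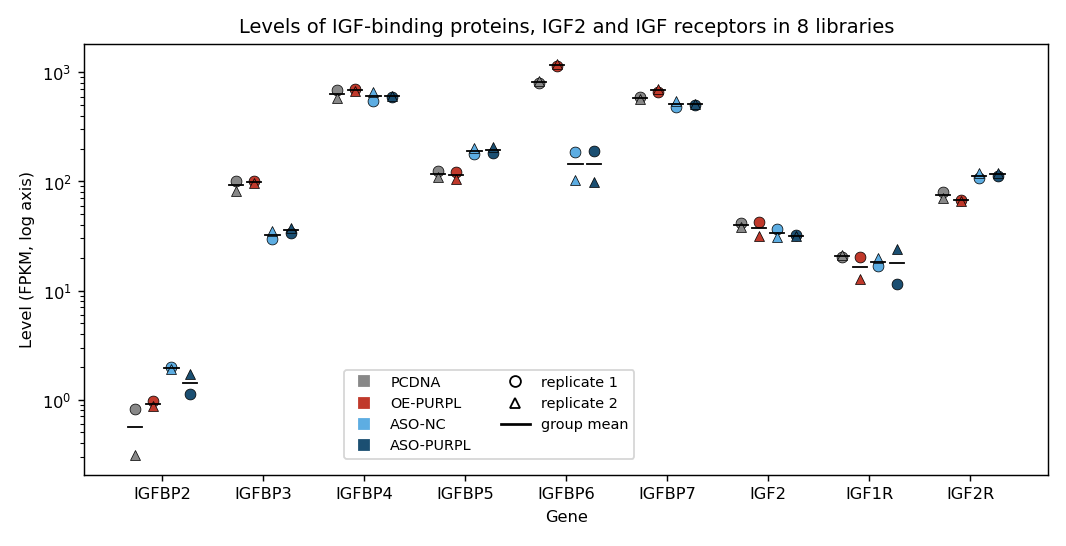
FPKM on a log axis of the 9 members that passed the filter, by group, with 1 point per library and a bar at the group mean. IGFBP6, IGFBP3 and IGFBP7 were higher in the 4 PCDNA and OE-PURPL libraries than in the 4 ASO libraries, while IGFBP5, IGF2R and IGFBP2 were lower. IGFBP2 passed the filter only through the ASO arm. The share of all genes whose libraries separate in this way was not counted. IGF1 (at most 0.169 FPKM) is not drawn.

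IGFBP6, a binding protein that prefers IGF2 over IGF1, lies on chromosome 12 (53097436 to 53102345, plus strand, GRCh38). Its level was 805 and 841 FPKM in PCDNA, 1134 and 1205 in OE-PURPL, 188 and 104 in ASO-NC, and 191 and 99.1 in ASO-PURPL. The OE-PURPL libraries lay above both PCDNA libraries, the 4 ASO libraries lay far below all of these, and the ASO groups overlapped. Within the ASO groups the replicate 1 libraries, which stand in another table than replicate 2, were the higher ones. Among all genes IGFBP6 ranked between 42 and 776 from the top across the 8 libraries, the widest span of log2 level of any tested member, 3.59.

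IGFBP3, the main carrier of circulating IGF, which also binds the cell surface, lies on chromosome 7 (45912245 to 45921874, minus strand). It was found at 102 and 82.1 FPKM in PCDNA, 101 and 96.2 in OE-PURPL, 29.9 and 35.3 in ASO-NC, and 33.7 and 37.6 in ASO-PURPL. The treated and control libraries overlapped in both arms, and the arms did not overlap. Its rank among all genes ran from 881 to 3280.

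IGFBP5, a binding protein that also attaches to extracellular matrix, and IGFBP2 are neighbours on chromosome 2, with 7668 bases between their ends: IGFBP2 spans 216632828 to 216664436 on the plus strand and IGFBP5 216672105 to 216695525 on the minus strand. IGFBP5 measured 125 and 109 FPKM in PCDNA, 123 and 106 in OE-PURPL, 179 and 204 in ASO-NC, and 182 and 207 in ASO-PURPL. Treated and control libraries were nearly equal within a replicate, and every ASO library was above every PCDNA or OE-PURPL library. IGFBP2 was near the limit of the filter, at 0.816 and 0.309 FPKM in PCDNA, 0.971 and 0.866 in OE-PURPL, 1.97 and 1.93 in ASO-NC, and 1.13 and 1.70 in ASO-PURPL. Both neighbours were thus lower in the 4 PCDNA and OE-PURPL libraries than in the 4 ASO libraries, with IGFBP5 the far more abundant of the pair.

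IGFBP4, an inhibitory binding protein cleaved by the protease PAPPA, lies on chromosome 17 (40443461 to 40457731, plus strand). Libraries held it at 683 and 578 FPKM in PCDNA, 704 and 682 in OE-PURPL, 549.6 and 659 in ASO-NC, and 599 and 607 in ASO-PURPL. Its rank among all genes ran from 80 to 156, treated and control libraries overlapped in both arms, and PCDNA overlapped both ASO groups. IGFBP7, a related protein with low affinity for IGFs, lies on chromosome 4 (57030773 to 57110385, minus strand), and its level was 599 and 572 FPKM in PCDNA, 668 and 704 in OE-PURPL, 478 and 549 in ASO-NC, and 507 and 516 in ASO-PURPL. The OE-PURPL libraries were above the PCDNA libraries, the ASO groups overlapped, and all ASO libraries lay below the other 4. POLR2B, an RNA polymerase subunit at 22.4 to 31.2 FPKM, overlaps IGFBP7 on the opposite strand, and whether reads were counted by strand is not stated.

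Of the ligands, IGF2 was the one whose level passed the filter. IGF2, on chromosome 11 (2129112 to 2149603, minus strand), stood at 42.0 and 37.8 FPKM in PCDNA, 42.4 and 31.9 in OE-PURPL, 36.6 and 30.7 in ASO-NC, and 32.2 and 31.3 in ASO-PURPL. Replicate 1 was the higher library in each group, and the groups overlapped within each arm. The value is uncertain where IGF2 shares sequence with the readthrough gene INS-IGF2, which was itself listed at no more than 0.01 FPKM. The antisense gene IGF2-AS was at 0.0821 to 0.278 FPKM. IGF1, on chromosome 12 (102395874 to 102481744, minus strand), was listed at 0.01 FPKM, the lowest value its tables hold, in all 4 replicate 1 libraries. In replicate 2 it stood at 0.00787 in PCDNA, 0.169 in OE-PURPL, 0.00109 in ASO-NC and 0 in ASO-PURPL, so no fold change is given.

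IGF1R, on chromosome 15 (98648539 to 98964530, plus strand), was at 20.4 and 21.2 FPKM in PCDNA, 20.3 and 12.9 in OE-PURPL, 16.6 and 19.8 in ASO-NC, and 11.5 and 24.1 in ASO-PURPL. The OE-PURPL library of replicate 1 was level with PCDNA and that of replicate 2 well below it, and the ASO-PURPL libraries lay on both sides of ASO-NC. IGF2R, on chromosome 6 (159969099 to 160113507, plus strand), was at 80.6 and 70.7 FPKM in PCDNA, 68.0 and 66.6 in OE-PURPL, 107 and 119 in ASO-NC, and 113 and 120.2 in ASO-PURPL. The OE-PURPL libraries were slightly below PCDNA, the ASO groups overlapped, and all ASO libraries lay above the other 4. AIRN, an antisense gene that overlaps IGF2R, was at no more than 0.394 FPKM. The ratio of IGF2R to IGF1R was 3.96 and 3.34 in PCDNA, 3.35 and 5.18 in OE-PURPL, 6.46 and 6.0 in ASO-NC, and 9.85 and 4.98 in ASO-PURPL, lower in every PCDNA library than in any ASO library.

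Ratios within a library do not depend on how the tables were scaled. IGFBP6 made up 34.8% and 38.5% of the summed FPKM of the 6 binding proteins in PCDNA, 41.5% and 43.1% in OE-PURPL, 13.2% and 6.69% in ASO-NC, and 12.6% and 6.75% in ASO-PURPL. IGFBP4 took the leading share in the ASO libraries, 38.5% to 42.4%, and held 24.4% to 29.5% in the others. For IGFBP7 the share was 33.5% to 35.4% in the ASO libraries and 24.5% to 26.2% in the others. IGFBP5 contributed 12.0% to 14.1% in the ASO libraries and 3.78% to 5.42% in the others. IGFBP3 contributed less than IGFBP5 in every library, 2.09% to 2.56% in the ASO libraries and 3.44% to 4.41% in the others.

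**Figure D2:**
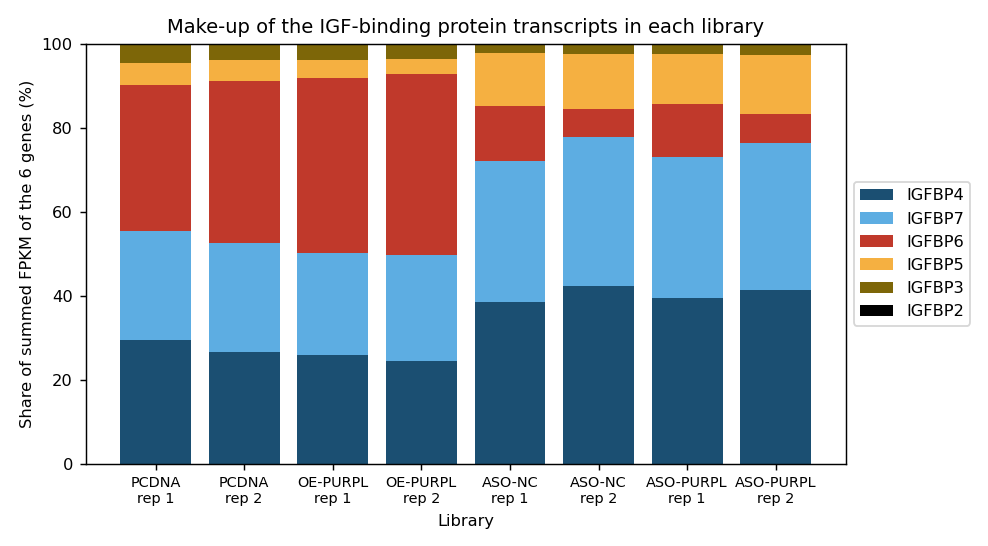
Share of each of the 6 binding proteins in their summed FPKM, in percent, with 1 stacked bar per library. IGFBP6 held 34.8% to 43.1% in the PCDNA and OE-PURPL libraries and 6.69% to 13.2% in the ASO libraries; IGFBP2, at most 0.138%, is too thin to be seen.

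The summed level of the 6 binding proteins was 2315 and 2183 FPKM in PCDNA, 2729.9 and 2794 in OE-PURPL, 1427 and 1554 in ASO-NC, and 1513 and 1467 in ASO-PURPL. IGFBP6 stood at 6.42 and 7.69 times IGFBP5 in PCDNA, 9.25 and 11.4 times in OE-PURPL, 1.05 and 0.508 times in ASO-NC, and 1.05 and 0.480 times in ASO-PURPL. The ratio of IGFBP3 to IGFBP5 was 0.814 and 0.750 in PCDNA, 0.821 and 0.911 in OE-PURPL, 0.167 and 0.173 in ASO-NC, and 0.185 and 0.182 in ASO-PURPL. Within each arm the IGFBP3 ratio differed less between libraries than the IGFBP6 ratio. The IGFBP6 ratio ran from 6.42 to 11.4 in the PCDNA and OE-PURPL libraries, and in the ASO arm it differed between the replicates. IGF2 amounted to 1.14 to 1.81 FPKM per 100 FPKM of the binding proteins in the PCDNA and OE-PURPL libraries and to 1.98 to 2.56 in the ASO libraries.

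The controls themselves therefore differed, and PCDNA was set against ASO-NC as a description without a test, since plasmid and oligonucleotide delivery, and for replicate 1 also the table, differ together with the group and cannot be told apart. For replicate 2 both libraries stand in 1 table. IGFBP6 was 4.28-fold higher in PCDNA in replicate 1 and 8.10-fold in replicate 2 (log2 ratio of FPKM plus 1, 2.09 and 3.01). IGFBP3 was 3.41-fold and 2.32-fold higher (1.74 and 1.19). These were the 2 members of 9 with a log2 ratio of at least 1 in both replicates, against 4.71% of the 14977 genes tested; 0 members reached that size in the other direction, against 2.94% of genes.

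In the opposite direction, IGFBP5 was lower in PCDNA by log2 ratios of -0.51 and -0.90, IGF2R by -0.41 and -0.74, and IGFBP2 by -0.71 and -1.16. The remaining members were closer to equal, with IGFBP7 at 0.32 and 0.06, IGF2 at 0.19 and 0.29, IGF1R at 0.28 and 0.09, and IGFBP4 at 0.31 and -0.19. Hence 5 members were higher in both replicates (35.7% of all genes) and 3 lower in both (35.1% of all genes), and neither count stands far from those shares. IGFBP2, among the lower members, passed the filter only through the ASO arm, so its place in the count is tied to that direction. In both replicates, 161 genes (1.07%) were at least as far up as IGFBP6, 502 (3.35%) at least as far up as IGFBP3, and 1703 (11.4%) at least as far down as IGFBP5. The median size of the ratio over all genes was 0.48 in replicate 1 and 0.40 in replicate 2.

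Other genes differed with the control in the same direction as IGFBP6 and IGFBP3. A list of 20 interferon-stimulated genes had a median level of 327 and 331 FPKM in PCDNA against 8.06 and 10.1 in ASO-NC. All 20 had a log2 ratio of at least 1 in both replicates. Of 20 genes of mitosis, 13 did so, against 4.71% of all genes tested. Both lists were chosen with earlier results of these data known. Of the 12 fibroblast markers, 5 were higher and 5 lower in both replicates, and 0 reached that size in either direction. Of the 6 immune-cell markers, CD68, which fibroblasts also transcribe, made up nearly all of the summed 59.2 to 355 FPKM, at 284 to 354 in the PCDNA and OE-PURPL libraries and 58.4 to 78.5 in the ASO libraries, while PTPRC, the common leukocyte antigen, was at most 0.303 FPKM. The part of these differences in those of the binding proteins was not tested, and in a bulk sample fewer cells of a type and less RNA per cell cannot be told apart.

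**Figure D3:**
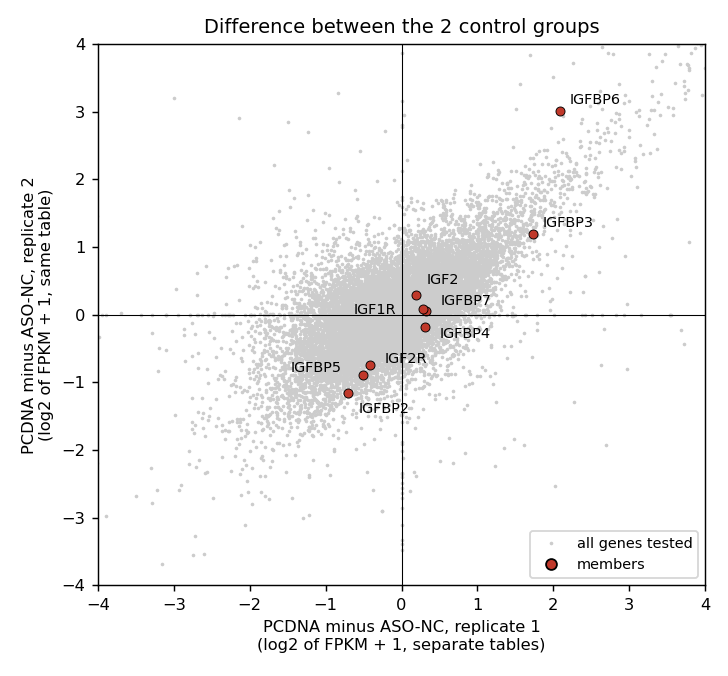
Log2 ratio of FPKM plus 1, PCDNA minus ASO-NC, in replicate 1 (horizontal) and replicate 2 (vertical), with 1 grey point per tested gene and the 9 tested members in red; 105 genes lie beyond the axes, which end at 4 in each direction. IGFBP6 (2.09 and 3.01) and IGFBP3 (1.74 and 1.19) lie in the upper right and IGFBP2, IGFBP5 and IGF2R in the lower left.

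The sequences before the starts of IGFBP3 and IGFBP5 are shown because these genes differed between the controls in opposite directions. Each is the 250 bases before the start of the RefSeq gene (GRCh38.p14), read 5′ to 3′ on the gene's own strand, with capitals for matches to any of 5 motifs searched on both strands. IGFBP3 is chr7:45921273-45921522 (minus strand) and IGFBP5 is chr2:216695550-216695799 (minus strand). The RefSeq start of IGFBP3 lies inside the GENCODE span given above, so its window falls within that span, with 2 bases in GENCODE exons.
IGFBP3: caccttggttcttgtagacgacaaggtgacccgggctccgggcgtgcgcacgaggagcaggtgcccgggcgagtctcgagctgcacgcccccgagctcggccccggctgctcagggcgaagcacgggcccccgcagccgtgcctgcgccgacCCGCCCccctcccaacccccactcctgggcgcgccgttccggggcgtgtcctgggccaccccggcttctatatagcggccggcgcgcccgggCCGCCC
IGFBP5: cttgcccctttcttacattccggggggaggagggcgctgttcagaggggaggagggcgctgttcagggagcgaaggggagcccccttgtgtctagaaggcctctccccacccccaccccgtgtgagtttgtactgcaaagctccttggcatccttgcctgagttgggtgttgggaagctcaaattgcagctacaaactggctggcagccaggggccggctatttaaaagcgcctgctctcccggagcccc
The capitals in IGFBP3 are 2 GC boxes (GGGCGG), a motif held by 42.6% of the 35116 promoters of the same length, and IGFBP5 had no match. Of the other motifs, the interferon-response core (GAAA, any 2 bases, then GAAA) is in 3.02% of all promoters, the STAT site TTCNNNGAA in 6.57%, the AP-1 site TGANTCA in 6.57% and the TATA box TATAAA in 10.7%. None of the 11 member windows, in which IGF2 and IGFBP7 had no entry, matched the interferon-response, STAT or AP-1 letters, and IGFBP4 had a TATA box. IGFBP6 had 1 GC box; its window lies mostly within exons of longer transcripts and is not printed. GC boxes also stood before IGF2R (6) and IGFBP2 (at most 1 per window), which were lower in PCDNA, and before IGF1R (2) and IGFBP4 (1). Whether any of these motifs has a part in the differences between the controls was not tested. A match is a string of letters, not a shown binding site.

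Overexpression of PURPL was compared with PCDNA by the within-table log2 ratios of FPKM plus 1, using limma over all 14977 genes with Benjamini-Hochberg adjustment. Across all genes 4 passed an adjusted p of 0.05 (0.0267%, all higher), and 0 of the 9 tested members did. Leaving out OE-PURPL replicate 1 left 1 such gene; leaving out OE-PURPL replicate 2, or either pair of the ASO arm, left 0. For a single gene, an exact permutation test cannot give a two-sided p below 0.333 with 2 libraries a group, or below 0.5 within 2 pairs. PURPL was among the 4 genes that passed, with a limma log2 difference of 4.87 (SE 0.16, adjusted p = 0.00511). With each arm fitted alone, its adjusted p in limma was 0.365, and with no filter on low values it was 0.492. PURPL also did not pass with any 1 pair left out.

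IGFBP6 was higher in OE-PURPL by similar amounts in both replicates. The log2 ratio was 0.49 in replicate 1 and 0.52 in replicate 2, or 1.41-fold and 1.43-fold more in OE-PURPL. limma gave 0.51 (SE 0.09) with an unadjusted p of 0.00196 and an adjusted p of 0.324, so the difference did not pass over all genes. An unadjusted p under 0.05 was reached by 1 member of 9 and by 13.8% of all genes, and 173 genes (1.16%) were at least as far up as IGFBP6 in both replicates. The longest transcript of IGFBP6 is 1177 bases with a GC content of 64.1%; only 8.24% of tested genes have a shorter one and 95.1% a lower GC content. With the trend of the ratios on length and GC content removed, a choice made after seeing the data, its log2 difference was 0.22.

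The other binding proteins had limma log2 differences of 0.23 for IGFBP7 (SE 0.11, adjusted p = 0.404), 0.14 for IGFBP4 (SE 0.12, adjusted p = 0.608), 0.31 for IGFBP2 (SE 0.22, adjusted p = 0.540), 0.10 for IGFBP3 (SE 0.10, adjusted p = 0.663) and -0.04 for IGFBP5 (SE 0.08, adjusted p = 0.846). IGFBP2 had ratios of 0.12 and 0.51, and its difference was 0.73 with a pseudocount of 0.1 FPKM and 0.09 with 5. For IGFBP7 the value was 0.08 with the length and GC trend removed. IGF2 had -0.11 (SE 0.11, adjusted p = 0.673 in limma), the mean of 0.01 in replicate 1 and -0.24 in replicate 2. The receptors lay below 0 in both replicates, with limma values of -0.34 for IGF1R (SE 0.24, adjusted p = 0.548) and -0.16 for IGF2R (SE 0.09, adjusted p = 0.449). IGF1R took nearly all of its difference from replicate 2, at -0.68 against -0.01 in replicate 1, and IGF2R stood at -0.03 with the length and GC trend removed. By sign, 4 members were higher in both replicates and 3 lower in both, against 32.6% and 31.1% of all genes. A log2 ratio of at least 1 in both replicates was reached by 0 members in either direction (0.14% of genes higher and 0.0935% lower). In the same pairs 14 of the 20 interferon-stimulated genes were higher in both replicates and 15 of the 20 mitosis genes lower in both; their part in the members' values was not tested.

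**Figure D4:**
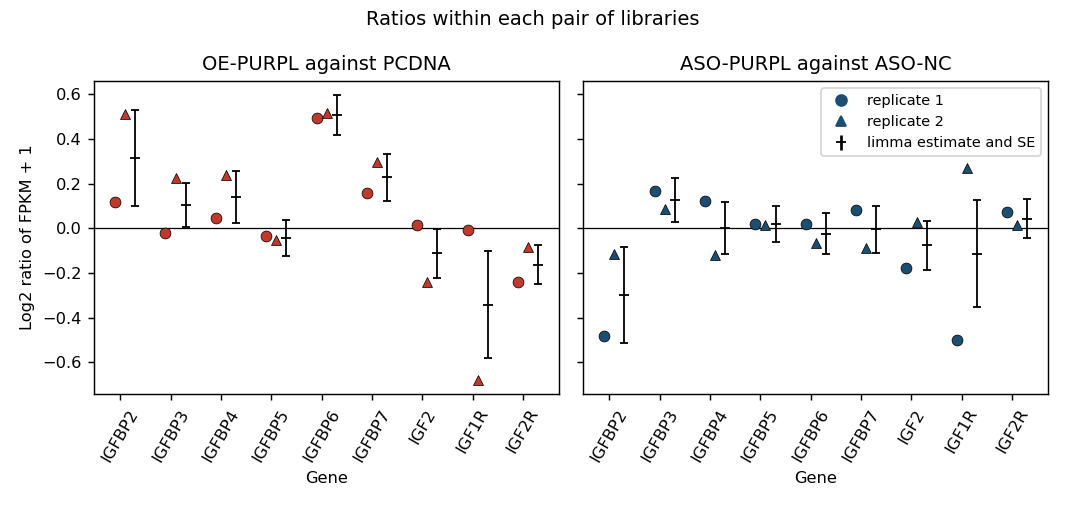
Log2 ratio of FPKM plus 1 of treated over control for each tested member, with 1 point per replicate, for OE-PURPL against PCDNA (left, red) and ASO-PURPL against ASO-NC (right, blue); the tick beside each pair is the limma estimate and its bar extends 1 SE to each side. IGFBP6 lies at 0.49 and 0.52 on the left and at 0.02 and -0.07 on the right, and the replicates of IGF1R lie far apart in both panels.

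Knockdown with ASO-PURPL was compared with ASO-NC in the same fit. No gene passed the adjusted threshold in limma (0 of 14977, 0%), 1225 genes (8.18%) had an unadjusted p under 0.05, and 0 members did. PURPL itself, the targeted RNA, had a limma log2 difference of -1.13 (SE 0.16, adjusted p = 0.374). The test thus did not call the targeted RNA either, so 0 members passing does not show that none changed. Among the binding proteins, the limma log2 differences were -0.30 for IGFBP2 (SE 0.22, adjusted p = 0.716), 0.13 for IGFBP3 (SE 0.10, adjusted p = 0.736), 0.02 for IGFBP5 (SE 0.08, adjusted p = 0.966) and -0.02 for IGFBP6 (SE 0.09, adjusted p = 0.962). IGFBP4 had ratios of 0.12 and -0.12, IGFBP7 of 0.08 and -0.09, and IGF2 of -0.18 and 0.03, so the replicates of each lay on both sides of 0. IGFBP2, the one member lower in both replicates (33.4% of all genes), had ratios of -0.48 and -0.12. A log2 ratio of at least 1 in both replicates was again reached by 0 members (0.214% of genes higher and 0.227% lower). By the same count, 3 members were higher in both, IGFBP3, IGFBP5 and IGF2R (19.3% of all genes). IGF1R was at -0.50 in replicate 1 and 0.27 in replicate 2, so its replicates disagreed in direction by more than the size of its limma difference, -0.11 (SE 0.24, adjusted p = 0.920).

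Whether the change under overexpression differed from that under knockdown was tested as a contrast in that fit. Across all genes 3 passed (0.02%, all higher under overexpression, and 0 with any 1 pair left out), and 0 members did. IGFBP6 had the lowest p, with a limma log2 difference of 0.53 (SE 0.13, unadjusted p = 0.00755, adjusted p = 0.350), and was the 1 member of 9 with an unadjusted p under 0.05, against 13% of all genes. With the length and GC trend removed, the differences were 0.24 for IGFBP6, 0.09 for IGFBP7 and -0.06 for IGF2R. Without that removal, the limma values were 0.61 for IGFBP2 (SE 0.31, adjusted p = 0.444), 0.23 for IGFBP7 (SE 0.15, adjusted p = 0.525) and -0.21 for IGF2R (SE 0.12, adjusted p = 0.508). Under overexpression the median log2 ratio of the 9 members was 0.01 in replicate 1 and 0.23 in replicate 2, against -0.01 and 0.02 over all genes tested. Under knockdown it was 0.02 and 0.01, against -0.02 and -0.06.

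The wider IGF axis was taken from lists of 51 other genes, of which 44 were tested: binding protein proteases, other receptors, the IGF2 locus and its RNA-binding proteins, substrates and adaptors, and the PI3-kinase, TOR and FOXO branches. None passed the limma test under overexpression, under knockdown or in the difference, where 6, 0 and 8 genes of 44 had an unadjusted p under 0.05, against 13.8%, 8.18% and 13% of all genes tested. Under overexpression 12 were higher and 21 lower in both replicates, against 32.6% and 31.1% of all genes. Under knockdown 7 were higher and 16 lower, against 19.3% and 33.4%. IGFBP1, the liver-type binding protein, was at no more than 0.0526 FPKM in any library.

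PAPPA, the protease that cleaves IGFBP4, was at 7.98 and 7.39 FPKM in PCDNA, 4.98 and 5.15 in OE-PURPL, 9.70 and 12.9 in ASO-NC, and 8.43 and 18.6 in ASO-PURPL. OE-PURPL lay below PCDNA in both replicates, by log2 ratios of -0.59 and -0.45 (limma unadjusted p = 0.0361, adjusted p = 0.350), and the ASO groups overlapped. STC2, an inhibitor of PAPPA, was at 470 and 469 FPKM in PCDNA, 510.4 and 632 in OE-PURPL, 649 and 244 in ASO-NC, and 626 and 239 in ASO-PURPL. Its ASO libraries split by replicate and not by group. STC1, a related inhibitor of PAPPA, was at 81.5 and 95.8 FPKM in PCDNA, 90.9 and 101 in OE-PURPL, 68.8 and 67.3 in ASO-NC, and 61.3 and 63.3 in ASO-PURPL, with the overexpression groups overlapping and the knockdown groups not. Under knockdown limma gave STC1 a log2 difference of -0.13 (SE 0.08, unadjusted p = 0.188, adjusted p = 0.686). HTRA1, a secreted serine protease that cleaves binding proteins, was at 74.2 and 71.6 FPKM in PCDNA, 70.9 and 78.2 in OE-PURPL, 166 and 196 in ASO-NC, and 174 and 164 in ASO-PURPL.

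Between the controls, HTRA1 was lower in PCDNA by log2 ratios of -1.15 and -1.44, as was PIK3R2, a regulatory subunit of PI3-kinase, by -1.12 and -1.63. SOS1, an adaptor-bound activator of RAS, was higher by 1.01 and 1.01, and RICTOR, a component of TOR complex 2, by 1.25 and 1.30. These were the axis genes with a log2 ratio of at least 1 in both replicates, 2 of 44 in each direction against 4.71% of all genes higher and 2.94% lower. INSR, the insulin receptor, was at 1.85 and 1.40 FPKM in PCDNA, 1.01 and 1.43 in OE-PURPL, 3.21 and 1.83 in ASO-NC, and 0.96 and 1.81 in ASO-PURPL, and its groups overlapped in the overexpression arm; in the knockdown arm its ratios were -1.10 and -0.01. IRS1, a docking protein for both receptors, ranged over the 8 libraries from 5.02 to 8.19 FPKM. IRS2, a related docking protein, was at 9.21 and 7.13 FPKM in PCDNA, 7.15 and 7.19 in OE-PURPL, 11.8 and 18.3 in ASO-NC, and 9.27 and 16.0 in ASO-PURPL.

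Genes with the most similar pattern were found by the root mean square difference of centred log2 levels over the 8 libraries, for the members that varied most. Closest to IGFBP6 were VAMP5 (0.125), MDK (0.143) and C1R (0.155), against a range of 3.59 for IGFBP6 itself. IGFBP3 was matched best by ZNF844 (0.0672), LINC02701 (0.0862) and RNF122 (0.0945). ZNF844 stood at 1.41 to 6.94 FPKM, LINC02701 at 0.01 to 2.32 and RNF122 at 0.576 to 4.27, against 29.9 to 102 for IGFBP3. At such low levels the pseudocount of 1 FPKM shrinks log2 differences, so these genes may differ from IGFBP3 in fold change. Genes close to IGFBP2 included NPR3 (0.0910) and MBOAT7 (0.101), and the nearest to IGF1R were WNK1 (0.120), AC138035.2 (0.123) and TTC12 (0.131). The same limit holds for IGFBP2 itself (0.309 to 1.97 FPKM) and for AC138035.2 (0.502 to 1.70). The 8 libraries share the difference between the arms, so the likeness is a description.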

How the data were processed

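RNA of 8 BJ libraries was processed with STAR and Cufflinks on hg38, per the submitters' processing notes; the libraries came from total RNA and a SMARTER mRNA kit, per the labels. The authors deposited 3 tables of FPKM, a unit inferred from the values, and the depth is unknown. Replicate 1 of each arm has its own table with a floor of 0.01 FPKM and the authors' log2 column, which matches log2 ratios with a pseudocount of 1 to within 0.0015; replicate 2 of all groups shares 1 table that keeps zeros.

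For repeated names the row of highest mean was kept, and 1 gene with a cell that is no number was left out, so 59370 remained. Ratios within a table (log2, pseudocount 1) of 14977 genes entered a limma fit (limma 3.58.1 and R 4.3.3, empirical Bayes with trend, 2 residual degrees of freedom), with Benjamini-Hochberg adjustment. Because each ratio sets a library against the control of the same replicate number and table, the fit includes the pairing; the deviations of same-numbered libraries correlated by 0.14 in the overexpression arm and 0.49 in the knockdown arm. The members and lists were chosen with earlier results of these data known. Named beyond the members are axis genes with a log2 ratio of at least 1 in both replicates of any comparison, 7 axis genes named whatever their values, and the 3 genes nearest to each widely varying member, of which 1 is not reported here. PURPL, genes that overlap a member, and single markers of other cell types are also named. GENCODE release 29 gave coordinates and RefSeq (GRCh38.p14) the promoters. Design text of the series that names another cell line was not used.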

Additional observations from a re-analysis of the deposited data

How the results depend on the processing

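No tested member passed an adjusted p of 0.05 in limma under any alternative run: the lowest was 0.226 under overexpression, 0.515 under knockdown and 0.277 for the difference. The count of genes passing under overexpression, 4, was 2 with a pseudocount of 5 FPKM, 0 with each arm fitted alone, 1 with the length and GC trend removed, and 0 to 1 with a pair left out. Under knockdown, 0 became 1 with a pseudocount of 0.1 and 9 with no filter. For the difference, 3 became 10 with no filter and 0 with any pair left out.

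Without the replicate block, on quantile-normalized values, 5 genes passed under overexpression, and signs changed as follows. The quantile-normalized log2 values under overexpression were -0.010 for IGFBP3 and -0.042 for IGFBP4. Under knockdown they were -0.0081 for IGFBP4, 0.014 for IGFBP6 and 0.019 for IGFBP7, and for the difference -0.034 for IGFBP4. With groups of equal size, leaving out the block does not itself alter an estimate, only its error. IGFBP6 under overexpression was 0.34. With the length and GC trend removed, overexpression gave -0.068 for IGFBP4 and 0.012 for IGFBP5, and the difference -0.094 and 0.0060. Centring gave knockdown values of 0.016 for IGFBP6 and 0.036 for IGFBP7.

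Leaving out a pair leaves the ratio of the other pair as the estimate of its arm, so the ranges within an arm repeat the replicate ratios. Overexpression ran from -0.020 to 0.23 for IGFBP3 and -0.24 to 0.015 for IGF2. Knockdown ran from -0.12 to 0.12 for IGFBP4, -0.067 to 0.020 for IGFBP6, -0.090 to 0.084 for IGFBP7, -0.18 to 0.028 for IGF2 and -0.50 to 0.27 for IGF1R. The difference ran from -0.15 to 0.10 for IGFBP3, -0.16 to 0.090 for IGF2 and -0.61 to 0.16 for IGF1R. IGFBP2 depended on the pseudocount: between the controls it was -1.74 on average with 0.1 and -0.32 with 5 FPKM, and for the difference 1.19 and 0.21. IGFBP6 held 36.7% of the binding proteins in PCDNA on average and 50.9% of the 5 without IGFBP4. The second share is larger because its sum leaves out IGFBP4, and IGFBP2 moves with the pseudocount because its level is of similar size. The cause of the differences between replicates was not tested. IGFBP2 could not be fitted with the filter at 5 FPKM. Unknown depth limits the low members IGFBP2 and IGF1.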
